A study of Mus musculus with 2 samples.

Results

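IgG plasma cells are antibody-secreting cells whose heavy-chain locus has been switched to a gamma constant gene, and 73 of them were found among 13511 colonic immune cells of mice with dextran sulfate sodium (DSS) colitis. They were chosen by measured values. A barcode was kept with at least 2000 unique molecular identifiers (UMIs, counted transcripts), at least 500 detected genes and under 5% mitochondrial UMIs. A kept barcode was a plasma cell where Mzb1, Derl3, Txndc5 and Xbp1 together had at least 10 UMIs, the 8 heavy-chain constant genes held at least 1% of its UMIs, and neither Csf1r nor Cd3e was counted. It was an IgG plasma cell where Ighg1, Ighg2b, Ighg2c and Ighg3 together held over 50% of its heavy-chain constant UMIs. This gave 26 members of 5851 kept cells in the WT-labelled library and 47 of 7660 in the Ring1AKO-labelled library, besides 522 and 441 IgA and 5 and 5 IgM plasma cells by the same rule.

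The study compared colitis in WT mice and in mice lacking Ring1A, a catalytic subunit of Polycomb repressive complex 1 that is encoded by Ring1. Live (7-AAD negative) CD45+ cells were sorted from the colonic lamina propria (LP) after the epithelium was stripped, and each genotype gave 1 library of 10x Genomics 3′ chemistry made from 5 pooled mice. All mice were C57BL/6, 8 to 10 weeks old by the labels, and given DSS, so no library shows the colon without colitis. With 1 library per genotype, no test was possible between the genotypes, the genotype and the batch of a library cannot be told apart, and the intervals given are 95% intervals that cover counting error only.

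Plasma cells arise from B cells and fill much of their cytoplasm with the endoplasmic reticulum that folds and exports antibody. In the gut most of them make IgA, which is joined into dimers by the J chain and carried across the epithelium, while IgG plasma cells are known to become more frequent in inflamed mucosa. The gamma subclasses differ mainly in the hinge and in how strongly they bind Fc receptors and complement.

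The labelled cell type was checked against its markers. Of the IgG markers, the rule used the sum of the Ighg genes, Mzb1 and Xbp1. Among plasma cell genes that it did not use, Jchain was counted in all 73 members. It was also counted in 1378 of 1535 T cells labelled WT and in 1352 of 1451 labelled Ring1AKO. Its detection alone therefore does not mark a plasma cell. Levels of genes other than immunoglobulin genes are given in CPM, the usual scaling of counts to a fixed total, from the UMIs of all cells of a class together and with their non-immunoglobulin UMIs as the total, because immunoglobulin transcripts took a median of 46.9% of a member's UMIs in the WT-labelled library and 49.6% in the Ring1AKO-labelled library. On this scale the members of the 2 libraries held Sdc1 (syndecan 1, the plasma cell surface marker) at 371 and 267 CPM, Irf4 at 205 and 185 CPM and Prdm1 at 211 and 121 CPM. The last 2 encode transcription factors of plasma cell differentiation. In CPM of all UMIs, Jchain had medians of 37138 in members labelled WT and 14202 in those labelled Ring1AKO. In T cells the medians were 368 and 401. Labelled WT, the lowest member had 10659 and the highest T cell 3032. Labelled Ring1AKO, these were 2736 and 29707, so the ranges overlapped there. Genes of B cells were counted as well, with Ms4a1 at 12 and 23 UMIs and Cd79a at 331 and 815.

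The members were deeply sequenced cells. Those labelled WT held between 16937 and 47379 UMIs with a median of 25326.5, and those labelled Ring1AKO between 3223 and 79777 with a median of 34095. IgA plasma cells had medians of 27350 and 35639. Over all barcodes the libraries held 74414511 and 81862096 UMIs. Of the kept barcodes 11 were found in both libraries and none of them was a member in both. Ring1 itself was counted in members of both libraries, with 7 UMIs in 7 of 26 cells labelled WT (18.7 CPM) and 19 UMIs in 16 of 47 cells labelled Ring1AKO (23.1 CPM). A count at the 3′ end does not show whether the transcript is disrupted upstream, and the libraries are therefore named by their labels throughout.

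The 4 gamma genes lie on the minus strand of chromosome 12 (GRCm38, GENCODE vM21). In the order of transcription after Ighm and Ighd they are Ighg3 (113356224 to 113361232), Ighg1 (113325240 to 113330523), Ighg2b (113302965 to 113307933) and Ighg2c (113285325 to 113288932), followed by Ighe and Igha. The hinge exons are shown because they set the subclasses apart by length and by cysteines, which can bond heavy chains to each other, with in-frame cysteine codons in capitals. They are the second exons of the secreted transcripts, at chr12:113360529-113360576, chr12:113329844-113329882, chr12:113307261-113307326 and chr12:113288263-113288325, and have 48, 39, 66 and 63 bases.
Ighg3: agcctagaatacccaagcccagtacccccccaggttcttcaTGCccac
Ighg1: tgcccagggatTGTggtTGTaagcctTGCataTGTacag
Ighg2b: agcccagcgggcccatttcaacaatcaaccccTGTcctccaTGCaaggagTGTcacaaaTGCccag
Ighg2c: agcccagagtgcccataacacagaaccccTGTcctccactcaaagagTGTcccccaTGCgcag
The hinge of Ighg3 carried 1 such codon, those of Ighg1 and Ighg2b 4 each and that of Ighg2c 3. Because the libraries count 3′ ends, the last 60 coding bases of each secreted form are shown as well, with every base that differs from Ighg2b at the same place in capitals.
Ighg3: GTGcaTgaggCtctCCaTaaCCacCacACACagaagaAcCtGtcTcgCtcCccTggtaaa
Ighg1: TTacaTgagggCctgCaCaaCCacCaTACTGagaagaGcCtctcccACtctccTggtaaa
Ighg2b: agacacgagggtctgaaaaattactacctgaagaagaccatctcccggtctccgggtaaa
Ighg2c: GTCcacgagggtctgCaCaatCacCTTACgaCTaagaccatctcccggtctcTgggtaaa
These stretches lie at chr12:113359668-113359727, chr12:113328979-113329038, chr12:113306392-113306451 and chr12:113287392-113287451. They differed from Ighg2b at 22 of 60 bases in Ighg3, 19 in Ighg1 and 14 in Ighg2c. Over the whole secreted transcripts the most similar pair was Ighg2b and Ighg2c, identical at 86.5% of aligned bases, and the other pairs lay between 73.0% and 75.9%.

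The subclass of a member was the gamma gene with the most UMIs. In the WT-labelled library 10 members were Ighg1, 11 Ighg2b and 5 Ighg2c, and in the Ring1AKO-labelled library 24 were Ighg1, 12 Ighg2b, 10 Ighg2c and 1 Ighg3. A member's own subclass held a median of 97.9% of its heavy-chain constant UMIs, between 61.8% and 99.5%, and over 90% in 67 of 73 members. Most members thus carried transcripts of essentially 1 constant gene. The subclass was read off the gene that the rule used only as part of a sum.

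**Figure D1:**
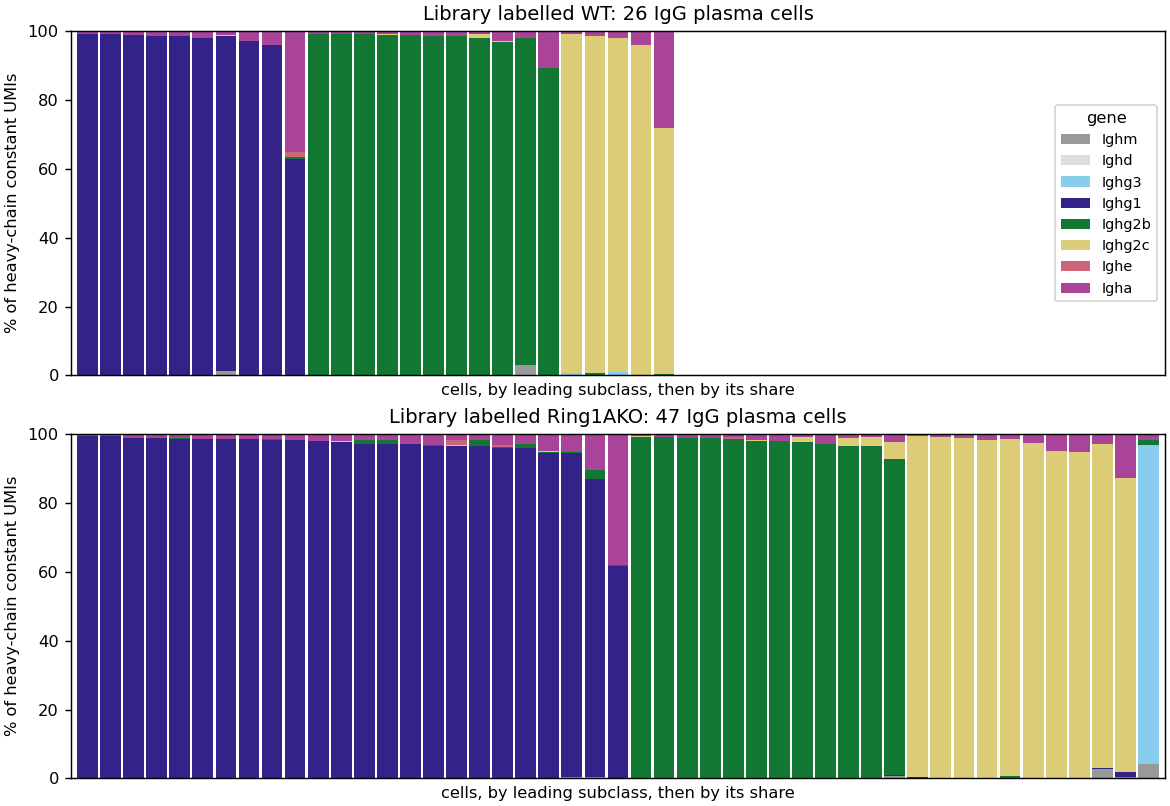
Each bar is 1 IgG plasma cell and shows the percentage of its heavy-chain constant UMIs (vertical axis) that came from each of the 8 constant genes (colours), for the WT-labelled library (top, 26 cells) and the Ring1AKO-labelled library (bottom, 47 cells). Nearly all bars hold a single gamma gene, and in 4 cells Igha had between 1251 and 2931 UMIs.

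Igha was counted in all 73 members, but in 69 of them it had between 9 and 234 UMIs, with a median of 61 and a median share of 1.42% of the heavy-chain UMIs. Its median level over the members, 2112 CPM of all UMIs labelled WT and 2255 labelled Ring1AKO, was close to that in T cells, which do not transcribe Igha, at 2081 and 2373. In the other 4 members, 3 labelled WT and 1 labelled Ring1AKO, Igha had between 1251 and 2931 UMIs and 10.6% to 38.1% of the heavy-chain UMIs. Such cells hold RNA of both isotypes, and whether each is 1 cell or a pair of cells under 1 barcode was not tested. The 1 labelled Ring1AKO, with 2931 Igha UMIs, also held 5208 Igkc and 6736 Iglc2 UMIs.

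A second gamma gene had at least 10 UMIs in 20 of 73 members. Among the 23 Ighg2b members it was Ighg2c in 7, with up to 226 UMIs, and Ighg1 in 1. Among the 34 Ighg1 members it was Ighg2b in 5, with up to 110 UMIs, and Ighg2c in none. Ighg2b and Ighg3 each reached this level in 3 of the 15 Ighg2c members. Ighg2b and Ighg2c are the most similar pair above, and how reads between them were divided in the counting was not tested. Ighe (IgE) had at least 10 UMIs in 4 members, 3 of them Ighg1, with up to 63 UMIs. In T cells Ighe had 0 UMIs in 1535 cells labelled WT and 8 in 1451 labelled Ring1AKO. Ighm reached 10 UMIs in 6 members and Ighd in none.

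The light chains were not used by the rule. Igkc led over Iglc1, Iglc2 and Iglc3 in 25 of 26 members labelled WT and in 45 of 47 labelled Ring1AKO, so 1 of 26 (3.85%, 0.0973% to 19.6%) and 2 of 47 (4.26%, 0.520% to 14.5%) were lambda cells. Among IgA plasma cells 50 of 522 (9.58%) and 33 of 441 (7.48%) were lambda. The interval of the lambda share of the members included the share of IgA cells in both libraries. The leading light chain held over 95% of the light-chain constant UMIs in 24 of 26 and 43 of 47 members. It held 56.8% in the member labelled Ring1AKO with 2931 Igha UMIs, which is counted as lambda here.

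The share of IgG plasma cells depended on what it was counted against. Of all kept cells they made up 0.444% (0.290% to 0.650%) labelled WT and 0.614% (0.451% to 0.815%) labelled Ring1AKO, a log2 ratio of 0.47 (-0.22 to 1.15). It was -0.72 without cells that carried markers of other lineages, and -0.88 where epithelial and stromal markers were not used to leave cells out, but T and myeloid cells then left the denominator too. Of plasma cells they made up 26 of 553, 4.70% (3.09% to 6.81%), and 47 of 493, 9.53% (7.09% to 12.5%), a log2 ratio of 1.02 (0.35 to 1.69). B cells were 19.1% of the WT-labelled and 45.5% of the Ring1AKO-labelled kept cells, and outside them the members took 0.550% and 1.13%, a log2 ratio of 1.03 (0.35 to 1.72), where that of IgA plasma cells was -0.063 (-0.24 to 0.11). Among plasma cells, and among cells other than B cells, the IgG share was thus higher in the Ring1AKO-labelled library by more than counting error. Without cells that carried markers of other lineages the log2 ratio among plasma cells was 0.99 (-0.47 to 2.45), an interval that includes 0. Whether it differs between mice of the genotypes could not be tested. The sort took CD45+ cells, and plasma cells that had lost CD45 would be missed.

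By subclass, Ighg1 cells were 1.81% (0.870% to 3.30%) of plasma cells labelled WT and, in the other library, 4.87% (3.14% to 7.16%), giving a log2 ratio of 1.43 (0.38 to 2.48). For Ighg2b cells the shares were 1.99% and 2.43%, a log2 ratio of 0.29 (-0.88 to 1.46), and for Ighg2c cells 0.904% and 2.03%, a log2 ratio of 1.17 (-0.37 to 2.70). Only the interval of Ighg1 excluded 0 among these 3, and the difference between the subclasses was not tested. Within the members, Ighg1 cells took 38.5% (20.2% to 59.4%) and 51.1% (36.1% to 65.9%), which gives a log2 ratio of 0.41 (-0.40 to 1.22), so a shift of the subclass makeup was not detectable with this number of cells. Without the cells that carried markers of other lineages this ratio was -1.17. That choice left out 20 of 26 members labelled WT and 38 of 47 labelled Ring1AKO, so the value rests on few cells.

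**Figure D2:**
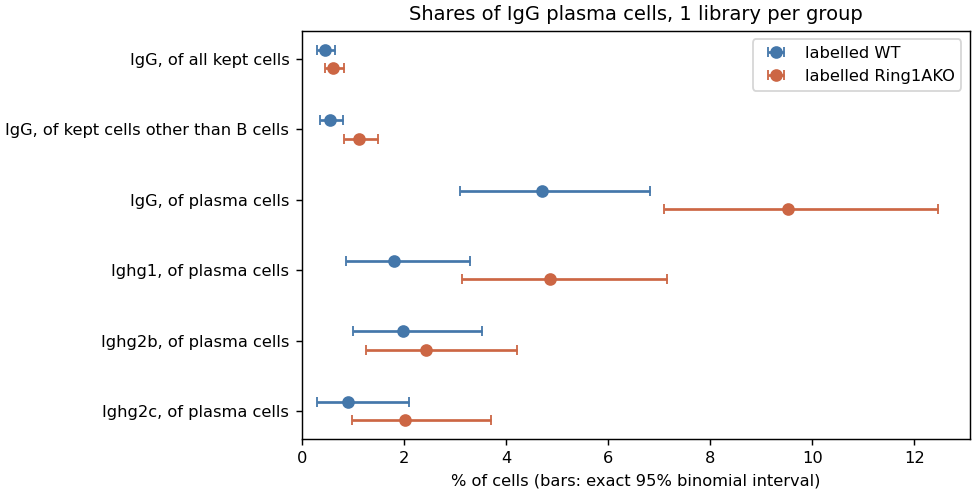
Percentage of cells (horizontal axis) that were IgG plasma cells, or IgG plasma cells of 1 subclass, of the denominator named on the vertical axis; points are the 2 libraries and bars the exact 95% binomial intervals. The IgG share of plasma cells is 4.70% and 9.53%, with intervals that do not meet.

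Cells on either side of the limits of the rule were counted in the WT-labelled and the Ring1AKO-labelled library. With all other limits met, the gamma genes held 30% to 50% of heavy-chain UMIs in 4 and 5 cells, just outside the rule, and 50% to 70% in 1 and 1, just inside it. Heavy-chain constant genes held 0.5% to 1% of all UMIs in 2 and 4 cells, against 0 and 0 members between 1% and 2%. Counted Csf1r or Cd3e alone kept out 6 and 8 cells, beside 26 and 47 members. Among plasma cells of any isotype it kept out 195 and 158, beside 553 and 493 that passed. The gamma genes held over 90% in 23 of 26 and 44 of 47 members, far from that limit.

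Variable genes were read from the same counts, which resolve the gene but not the joint between gene segments, so a shared pair does not show a shared clone. A member was given a heavy and a light variable gene where 1 gene held at least 5 UMIs and at least 50% of the UMIs of its kind. By this rule the lambda gene Iglv1 led in 35 of the 37 Igkc-led members labelled Ring1AKO that had a light variable gene, and in 9 of 24 labelled WT, and 27 of 42 members with both genes fell into 11 shared pairs. Whether these UMIs came from cell-free RNA or from how variable genes were counted was not tested, and they bear on the light variable genes and pairs given to members labelled Ring1AKO. With the light variable gene taken from the locus of the member's own light chain, an alternative added after the values were seen, 45 members had both genes, 24 labelled WT and 21 labelled Ring1AKO, and 23 of them fell into 9 shared pairs. Of these pairs 8 were found in 1 library only and 7 in 1 subclass only. A heavy variable gene was given to 24 of 26 members labelled WT but to 21 of 47 labelled Ring1AKO. Among IgA plasma cells this was 480 of 522 and 288 of 441. A pair not found in the Ring1AKO-labelled library may therefore have been missed there, which was not tested. With at least 10 UMIs and 80% required by the first rule, no pair was shared.

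The most frequent pair, Ighv1-20 with Igkv10-96, was carried by 6 members, all of them Ighg1 and all labelled WT, which is 6 of the 10 Ighg1 members of that library. The same pair was found in 5 IgA plasma cells labelled WT and in 0 labelled Ring1AKO. The reference sequences of both variable exons after the leader are shown because this pair held the largest group of like members; Ighv1-20 lies at chr12:114723772-114724065 and Igkv10-96 at chr6:68631963-68632249, both on the minus strand of GRCm38, and in-frame cysteine codons are in capitals. They are germline sequences, not reads of these cells.
Ighv1-20: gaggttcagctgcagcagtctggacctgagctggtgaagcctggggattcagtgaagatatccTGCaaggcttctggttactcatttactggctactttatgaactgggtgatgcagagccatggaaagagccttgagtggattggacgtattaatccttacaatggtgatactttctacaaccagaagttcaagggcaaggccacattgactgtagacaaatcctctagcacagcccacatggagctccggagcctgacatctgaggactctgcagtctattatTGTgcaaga
Igkv10-96: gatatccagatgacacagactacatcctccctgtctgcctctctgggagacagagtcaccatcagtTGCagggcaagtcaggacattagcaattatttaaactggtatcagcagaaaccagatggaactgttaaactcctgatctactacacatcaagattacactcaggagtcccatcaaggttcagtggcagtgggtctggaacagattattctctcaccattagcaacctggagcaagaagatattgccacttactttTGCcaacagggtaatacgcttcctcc
Each carries the pair of cysteine codons typical of an immunoglobulin variable domain. Ighv1-81 with Igkv1-110 was carried by 3 members labelled WT, 1 Ighg2b and 2 Ighg2c, and by 22 IgA plasma cells labelled WT and 2 labelled Ring1AKO. Of these 3 members 2 are among those with at least 1000 Igha UMIs described above, with 1251 and 2300. The other 7 pairs had 2 members each. Of these, Ighv1-12 with Igkv3-12, Ighv1-12 with Igkv4-57-1 and Ighv2-2 with Igkv6-20 were found in the WT-labelled library, and Ighv1-26 with Igkv4-72, Ighv1-34 with Igkv4-74 and Ighv1-61 with Igkv12-41 in the Ring1AKO-labelled library. Ighv4-1 with Igkv9-123 joined 1 Ighg2b member labelled WT and 1 Ighg2c member labelled Ring1AKO. Of members with both genes, 14 of 24 labelled WT and 8 of 21 labelled Ring1AKO had a pair that also occurred in an IgA plasma cell of the same library, and 7 and 4 had one that occurred in an IgA plasma cell of the other. The 14 include all 3 members labelled WT with at least 1000 Igha UMIs. IgA cells with both genes numbered 469 and 265, so the libraries offered unequal numbers to match.

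IgG plasma cells were next set against the IgA plasma cells of the same library, which passed through the same sort and sequencing. Over 5429 genes with at least 100 UMIs in both classes together in each library, 25 (0.46%) were more than 2-fold higher in IgG cells in both libraries and 39 (0.718%) more than 2-fold lower in both. The log2 ratio of all these genes had a median of 0.15 in each library on the CPM scale, and of 0.28 and 0.53 in CPM of all UMIs. IgA cells held a median of 53.2% and 62.7% immunoglobulin UMIs. Genes are named by the smaller of their ratios in the 2 libraries, among genes on the same side of 0 in both.

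Pld4, a phospholipase D family member of the endolysosome, had the highest such ratio. It stood at 107 CPM in IgG and 23.1 CPM in IgA cells labelled WT and at 88.9 and 14.3 CPM labelled Ring1AKO, log2 ratios of 2.23 (1.67 to 2.71) and 2.64 (2.17 to 3.09). Cd24a, a surface glycoprotein of B-lineage cells, had 581 against 230 CPM and 748 against 256 CPM, log2 ratios of 1.34 (1.13 to 1.54) and 1.55 (1.41 to 1.69). It was counted in 24 of 26 and in all 47 members. Ppa1, the cytosolic inorganic pyrophosphatase, had ratios of 1.20 (0.92 to 1.46) and 1.21 (1.00 to 1.42). Alpl, the tissue-nonspecific alkaline phosphatase, had 1.42 and 1.70, and Fads3, a fatty acid desaturase family member, 1.32 and 1.78. Pon3, a paraoxonase, had 1.95 and 1.27, Oosp1 2.13 and 1.22, Rsph1 1.39 and 1.81, Cyp4f18 1.67 and 1.19, and Gm45716 2.45 and 1.27. Among members labelled WT, single cells held 50% of the Gm45716, 43.1% of the Ppa1, 33.3% of the Alpl and 26.3% of the Rsph1 UMIs. All 10 were higher in IgG cells in both libraries, which their choice required, and their intervals lay above 0.

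Atp1b1, a subunit of the sodium-potassium pump, was lowest in IgG cells, with 29.3 against 206 CPM labelled WT and 34.1 against 154 CPM labelled Ring1AKO, log2 ratios of -2.69 (-3.82 to -1.97) and -2.13 (-2.77 to -1.64). Tnfrsf17 encodes BCMA, the receptor through which APRIL sustains long-lived plasma cells. It had 61.3 against 219 CPM and 32.9 against 237 CPM, log2 ratios of -1.77 (-2.50 to -1.24) and -2.80 (-3.46 to -2.30), and was counted in 9 of 26 and 15 of 47 members. Hes1, a target of Notch signalling, had ratios of -1.43 (-2.02 to -0.98) and -1.38 (-1.81 to -1.02), and Dusp5, a phosphatase of ERK kinases, -1.20 and -1.54. The lymphocyte GTPase genes Gimap5 and Gimap7 had -1.16 and -1.83, and -1.64 and -2.91. Gimap7 had only 3 UMIs in the members of each library, those labelled WT in a single cell, and an interval of -4.33 to -0.48 there. Tesc, Dyrk2, Tox2 and Zc3h12a completed the 10, each with 8 or fewer UMIs in the members of either library and accordingly wide intervals.

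**Figure D3:**
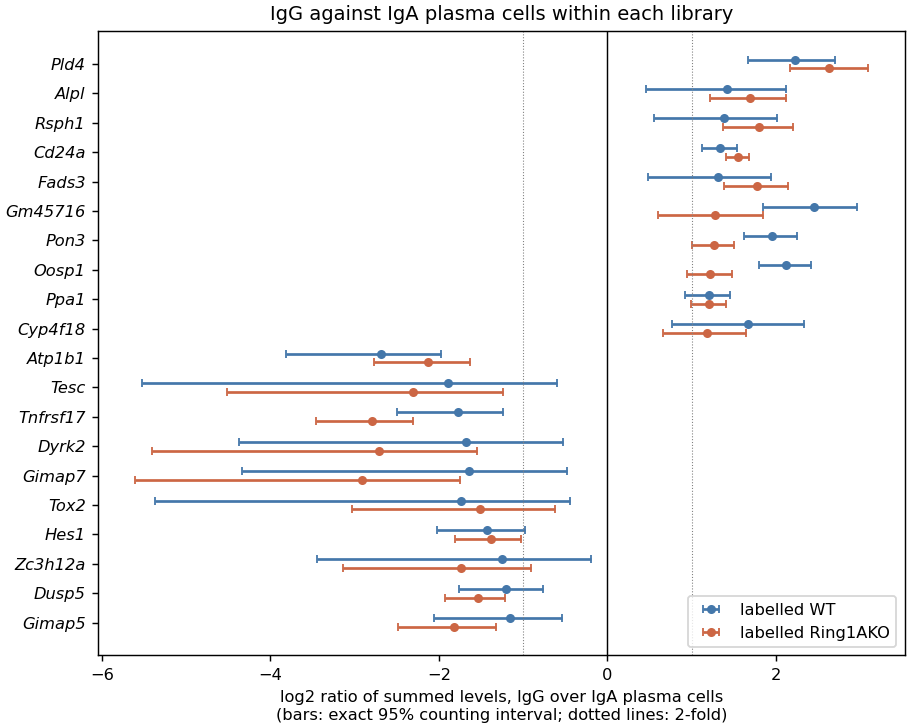
Log2 ratio of the summed level in IgG over IgA plasma cells of the same library (horizontal axis) for the 10 genes highest and the 10 lowest in IgG cells by the smaller ratio of both libraries; colours are the libraries, bars exact 95% counting intervals and dotted lines 2-fold. All 20 genes lie on the same side of 0 in both libraries, which their choice required, with Pld4 at 2.23 and 2.64 and Tnfrsf17 at -1.77 and -2.80.

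Jchain, whose product joins IgA and IgM into polymers, was lower in the members than in IgA cells but not absent. It stood at 64583 CPM in IgG and 126479 CPM in IgA cells labelled WT, a log2 ratio of -0.97, and at 39900 and 153080 CPM labelled Ring1AKO, a ratio of -1.94. Between members the level ran from 13645 to 186129 CPM with a median of 78019 labelled WT, and from 3163 to 204088 with a median of 28767 labelled Ring1AKO. The ranges overlapped widely, and 11 of 47 members labelled Ring1AKO lay below the lowest labelled WT. Within Ighg1 members the medians were 96385 and 31955 CPM, and within Ighg2c members 34063 and 41106.

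Genes of the secretory machinery act in translocation into and export from the endoplasmic reticulum. Of 28 tested, 25 had a ratio above 0 in WT and 28 in Ring1AKO, where 3523 and 3335 of all 5429 genes did, with medians of 0.29 and 0.50 beside 0.15 over all genes. Past 2-fold were 1 and 4 of them, and 1 in both libraries, where 25 of all 5429 genes (0.46%) were that much higher in both. The share of all genes past 2-fold in a single library is not given here. Fkbp11, a prolyl isomerase of the secretory pathway, was the secretory gene past 2-fold in both, at 1.02 (0.79 to 1.23) and 1.69 (1.56 to 1.81). The translocon-associated Ssr2 had 0.84 and 1.43, the oligosaccharyltransferase subunits Ddost 0.42 and 1.23 and Rpn1 0.38 and 1.07, and Ssr4, the list's most abundant gene, 0.43 and 0.23. Of 21 tested chaperones and unfolded protein response genes, 16 were above 0 in WT and 17 in Ring1AKO, with medians of 0.31 and 0.47. Hsp90b1 (GRP94) had 0.37 and 1.13 and Hspa5 (BiP) 0.43 and 1.09. A single member held 27.7% of the Hsp90b1 UMIs labelled WT, and a single member 32.8% of the Hspa5 UMIs labelled Ring1AKO. Mzb1 had 0.68 and 0.95 and Xbp1 -0.01 and -0.12, though both served the rule.

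Genes of homing and retention differed by gene. The list had 11 tested genes, of which 3 were above 0 in each library, with medians of -0.42 and -1.34. Of all 5429 genes 3523 in WT and 3335 in Ring1AKO were above 0, with a median of 0.15 in each. Ccr10, the receptor for the epithelial chemokine CCL28 that draws IgA cells to the colon, had 136 against 285 CPM and 106 against 323 CPM, log2 ratios of -1.04 (-1.50 to -0.67) and -1.59 (-1.94 to -1.30). The integrin chain Itgb7 had -0.58 and -1.46, the retention gene Cd69 -0.62 and -1.34 and Klf2 -0.38 and -1.62. Cxcr4, the receptor for CXCL12, had 1.06 (0.57 to 1.47) and 0.79 (0.53 to 1.04). Gpr183 was on different sides, at 0.96 and -1.54.

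Cxcr3, the receptor for the interferon-induced chemokines CXCL9 and CXCL10, was chosen after its values were seen, as was the split of Fcgr2b by subclass. It had 14 UMIs in 5 of 26 members labelled WT, 37.3 CPM (20.4 to 62.6), and 17 UMIs in 8 of 47 labelled Ring1AKO, 20.7 CPM (12.1 to 33.2). In IgA cells it had 28 UMIs in 19 of 522 cells and 14 UMIs in 13 of 441, 3.74 and 2.23 CPM, which gives log2 ratios of 3.37 (2.28 to 4.29) and 3.20 (2.11 to 4.35). Its UMIs were spread unevenly over the subclasses. Ighg1 members held 0 UMIs in 10 cells labelled WT, with an exact interval up to 27.2 CPM, and 1 UMI in 24 labelled Ring1AKO, whereas Ighg2b and Ighg2c members together held 14 UMIs in 5 of 16 cells and 15 UMIs in 6 of 22. Over both libraries these were 1.57 CPM (0.0398 to 8.76) in Ighg1 and 53.0 CPM (35.5 to 76.1) in Ighg2b and Ighg2c members. The inhibitory Fc receptor Fcgr2b had 18.9 CPM (9.75 to 32.9) in Ighg1 and 93.2 CPM (69.4 to 123) in Ighg2b and Ighg2c members, and in each library the latter were higher, with 22.2 against 83.4 CPM labelled WT and 18.0 against 101 CPM labelled Ring1AKO. For Ccr10 the intervals of these groups overlapped, at 130 CPM (104 to 162) and 101 CPM (75.8 to 131). These counts come from few cells.

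Survival and B cell genes gave mixed values. The prosurvival Bcl2 had 8 and 26 UMIs in the members and log2 ratios to IgA cells of -1.19 and -0.96, Mcl1 0.24 and -0.10, and Tnfrsf13b (TACI) -0.30 and -1.10. Bcl2l11 (BIM), a promoter of cell death, had 1.10 in WT and 0.11 in Ring1AKO. Of 5 tested B cell identity genes, 4 were above 0 in WT and 3 in Ring1AKO, where 3523 and 3335 of all 5429 genes were. Cd24a and Cd79b were above 0 in both. Cd79a, the most abundant, had 0.09 and -0.25. MHC class II genes summed to a log2 ratio of 0.25 in WT and -0.17 in Ring1AKO, and the latter was 0.21 in CPM of all UMIs. Of 6 tested genes of inhibitory receptors and cytokines 5 were above 0 in WT and 2 in Ring1AKO. The checkpoint ligand Cd274 (PD-L1) stood at 400 and 200 CPM in the members, with ratios of 0.07 and -0.64 to IgA cells, and Il10 at 29.3 and 45.1 CPM, with ratios of 0.03 and 0.26. Of 8 tested genes of class switching and transcription 4 were above 0 in WT and 2 in Ring1AKO, and Irf8 had -1.03 and -0.76. Of 12 tested interferon response genes 6 were above 0 in WT and 5 in Ring1AKO, with medians of 0.02 and -0.19. The list of amino acid transport and glycolysis had 5 of 11 above 0 in WT and 7 in Ring1AKO. Polycomb repressive complex 1 had 6 of 10 above 0 in WT and 4 in Ring1AKO.

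Of 15 listed genes of cell division 11 were tested against IgA cells. All 11 were above 0 in both libraries, where 3523 and 3335 of all 5429 genes were above 0 in WT and in Ring1AKO. The medians were 0.59 in WT and 1.57 in Ring1AKO, and 1 and 10 of the genes lay past 2-fold, 1 of them in both. Of all 5429 genes 25 (0.46%) were more than 2-fold higher in both. The share of all genes past 2-fold in a single library is not given here. Mki67 had 0.58 (0.17 to 0.93) and 1.82 (1.49 to 2.14), Rrm2, a subunit of ribonucleotide reductase, 1.07 and 1.75, and Ube2c, a mitotic ubiquitin-conjugating enzyme, 0.64 (-0.28 to 1.29) and 2.95 (2.63 to 3.27). The transcripts sat in few cells. The median member had 2 summed UMIs of the list labelled WT and 3 labelled Ring1AKO, whereas the highest had 117 and 239. At least 10 UMIs were found in 3 of 26 members (11.5%, 2.45% to 30.2%) and in 11 of 47 (23.4%, 12.3% to 38.0%), which held 82.9% and 91.8% of the list's UMIs. Among IgA plasma cells 41 of 522 (7.85%, 5.70% to 10.5%) and 20 of 441 (4.54%, 2.79% to 6.92%) reached 10 UMIs. In the Ring1AKO-labelled library the intervals of IgG and IgA cells did not meet, and in the WT-labelled library they overlapped. Of the 11 such members labelled Ring1AKO 7 were Ighg1, 3 Ighg2b and 1 Ighg2c, and of the 3 labelled WT none was Ighg1.

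The libraries were then compared within the members. Over 1469 genes with at least 100 UMIs in the members of both libraries together, 43 (2.93%) were more than 2-fold higher in the Ring1AKO-labelled library and 64 (4.36%) more than 2-fold lower, around a median log2 ratio of 0.10. These counts carry no error between mice. Each gene is given beside its ratio in IgA plasma cells, where the same genes had a median close to 0.

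Slpi, the secretory leukocyte peptidase inhibitor that blocks neutrophil proteases, had the largest ratio among the genes named by the rule. It had 885 UMIs, 2359 CPM, in the members labelled WT and 12193 UMIs, 14855 CPM, in those labelled Ring1AKO, which gives a log2 ratio of 2.65 (2.56 to 2.75). In IgA cells it stood at 2381 and 4140 CPM, a ratio of 0.80 (0.77 to 0.83). Between members labelled WT the level ran from 0 to 18503 CPM with a median of 492, and between those labelled Ring1AKO from 0 to 113412 CPM with a median of 3466. The ranges overlapped, and 15 of 47 members labelled Ring1AKO lay above the highest labelled WT. The ratio was 1.54 (1.43 to 1.66) within Ighg1, 4.93 (4.66 to 5.25) within Ighg2b and 2.98 (2.70 to 3.30) within Ighg2c members. Cell-free barcodes held Slpi at 1125 and 1077 CPM and T cells at 44.5 and 41.2 CPM, nearly the same in both libraries. The list of neutrophil markers had 22 UMIs in the members labelled WT and 545 in those labelled Ring1AKO, of which 1 Ighg2c member held 458 and no other more than 6. At least 3 UMIs of this list were found in 1 of 26 and 14 of 47 members. Without those members the log2 ratio of Slpi was 2.61, and without all cells marked by other lineages 1.73. The latter choice left out 20 of 26 and 38 of 47 members.

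**Figure D4:**
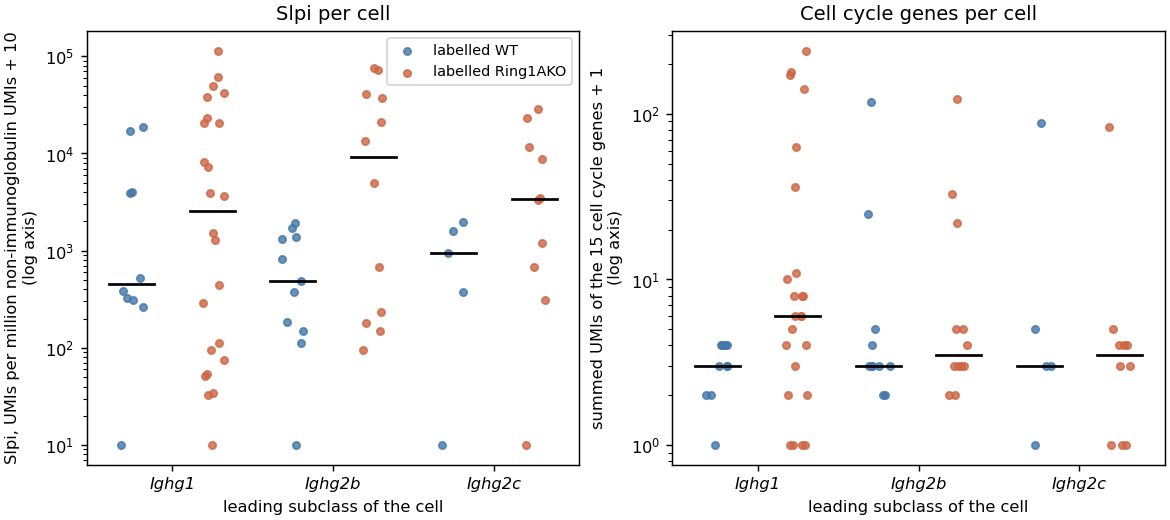
Left, Slpi in each IgG plasma cell by subclass, in CPM plus 10 on a log axis; right, summed UMIs of the 15 cell cycle genes per cell plus 1 on a log axis; colours are the libraries and black lines medians. The median of Slpi is higher in the Ring1AKO-labelled library in each subclass, while the medians of the cell cycle list are low in all and single cells reach 117 and 239 UMIs.

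The other 9 genes highest in the Ring1AKO-labelled library were named by the same rule. Ada, adenosine deaminase, had 50.6 and 235 CPM, a log2 ratio of 2.15 (1.53 to 2.98), with 0.05 in IgA cells. Mt1, a metallothionein, had 368 and 1622 CPM, a ratio of 2.13 (1.89 to 2.40), with -0.51 in IgA cells. Cdca3, which acts in mitotic entry, had 2.22, the histone gene H2ac24 2.22 and Cks1b, a subunit of cyclin-dependent kinases, 1.51, with -0.31, 0.34 and -0.07 in IgA cells. Shmt2, of mitochondrial serine metabolism, had 1.80, Fdps, of isoprenoid synthesis, 1.51, and Mdh1, the cytosolic malate dehydrogenase, 1.45. Syngr2 had 1.68 and also 1.07 in IgA cells. All 10 genes were above 0 within Ighg1, Ighg2b and Ighg2c members, and 4 of them past 2-fold in every subclass, which is a description because the same cells chose the genes. H2ac24 had 3.94 in Ighg1 and 0.96 in Ighg2b members, and Cdca3 had 0 and 92 UMIs in Ighg1 members and a ratio of 0.51 in Ighg2b members. Without cells marked by other lineages, which left out 20 of 26 and 38 of 47 members, H2ac24 had -0.059 in place of 2.22. With every cell thinned to 2000 UMIs, Shmt2 had -0.11 in place of 1.80.

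Of 5 tested cell cycle genes 4 were above 0, 2 of them past 2-fold, and by the sum of the list the log2 ratio was 0.98, with -0.25 in IgA cells. Ube2c had 16 UMIs, all in 1 cell labelled WT, and 168 UMIs in 11 cells labelled Ring1AKO, a ratio of 2.18 (1.52 to 3.10), and Stmn1 28 and 155 UMIs, a ratio of 1.30 (0.75 to 1.98). Cdk1 had 2.55 (1.42 to 4.77), Cdc20 2.04 (0.96 to 3.96), Birc5 1.58, Tyms 1.62 and Rrm2 1.19, all on fewer than 100 UMIs. Mki67 had -0.23. Of all 1469 genes 853 were above 0. Of the secretory genes 21 of 26 tested were above 0, with a median of 0.31, and 1 lay past 2-fold, Ddost at 1.05 (0.84 to 1.28). The 7 tested genes of amino acid transport and glycolysis were above 0, with a median of 0.54, and 1 lay past 2-fold. Pgk1, phosphoglycerate kinase, had 1.15 (0.66 to 1.74) with 0.06 in IgA cells.

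On the lower side, Ahnak, a large scaffold protein, had 402.5 CPM labelled WT and 71.9 CPM labelled Ring1AKO, a log2 ratio of -2.47 (-2.94 to -2.04), with -1.26 in IgA cells. It was counted in 23 of 26 members labelled WT and in 22 of 47 labelled Ring1AKO. It was also lower in T cells, at 509 and 219 CPM, and in barcodes of cell-free RNA, at 481 and 249 CPM. The interferon-inducible Ifi27l2a had 368 and 85.3 CPM, a ratio of -2.10 (-2.55 to -1.68), with -1.37 in IgA cells, while T cells held 881 and 568 CPM. The linker histone gene H1f4 had -1.47 in the members and -2.57 in IgA cells, and in T cells 174 and 39.8 CPM. The mitochondrial transcripts mt-Nd4l and mt-Nd5 had -1.76 and -1.49, with -1.26 and -0.89 in IgA cells. Mdm2, the regulator of p53, had -1.53, Ifrd1 -1.46, the kinase gene Mast4 -1.63 and Hsph1, a heat shock protein, -1.58, with -0.42, -0.88, -0.58 and -0.22 in IgA cells. Gm30211 had -1.54 with 0.45 in IgA cells. All 10 were below 0 within each of the 3 subclasses, 3 of them past 2-fold in every one. This too is a description, because the same cells chose the genes. Gm30211 had -0.05 (-1.29 to 1.32) in Ighg2c members and Mdm2 -0.22 (-1.17 to 1.06) in Ighg1 members.

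**Figure D5:**
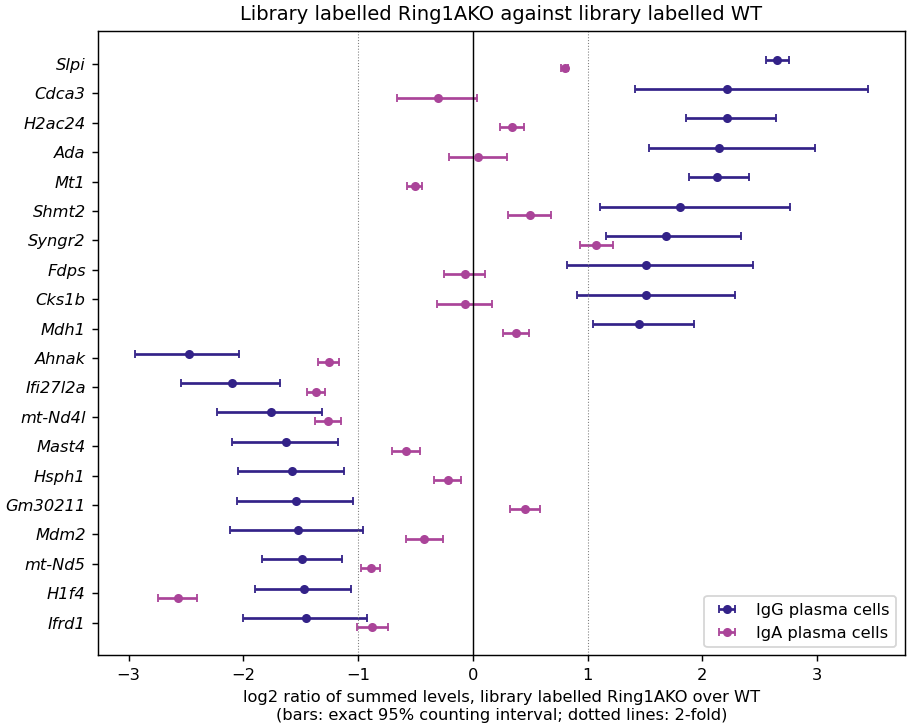
Log2 ratio of the summed level in the Ring1AKO-labelled library over the WT-labelled library (horizontal axis) for the 10 genes highest and the 10 lowest in IgG plasma cells, shown for IgG and IgA plasma cells (colours) with exact 95% counting intervals; dotted lines mark 2-fold. Slpi lies at 2.65 in IgG and 0.80 in IgA cells, while Ahnak, Ifi27l2a and H1f4 are lower in both.

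Immediate-early genes answer stimulation of a cell. Of 11 tested 0 were above 0, where 853 of all 1469 genes were, with a median of -0.55, and 2 lay more than 2-fold lower. Jun had 1959 and 781 CPM, a log2 ratio of -1.33 (-1.48 to -1.17), Fosb 1024 and 492 CPM, -1.06 (-1.26 to -0.85), and Fos 1197 and 782 CPM, -0.61. In IgA cells Jun had -0.26 and Fosb -0.34, and the whole list summed to -0.63 in IgG and -0.04 in IgA cells. Among plasma cell identity genes 1 of 8 tested was above 0, with a median of -0.59. Tnfrsf13b had -1.23 (-1.65 to -0.82), Ell2, an elongation factor that favours the secreted immunoglobulin transcript, -1.03 (-1.34 to -0.73) with -0.83 in IgA cells, Jchain -0.69 (-0.72 to -0.67) and Prdm1 -0.81 (-1.25 to -0.36). Of the unfolded protein response genes 8 of 19 tested were above 0, and only Atf6 lay past 2-fold, at -1.03 (-1.42 to -0.63). Of 5 tested survival genes 1 was above 0 and of 5 homing genes 1.

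In the interferon response list 2 of 4 tested genes were above 0, where 853 of all 1469 genes were. Gbp2, a guanylate-binding GTPase under 100 UMIs in the members, had 41 and 15 UMIs, a log2 ratio of -2.52 (-3.54 to -1.70) with -0.99 in IgA cells. Cd274, at 400 and 200 CPM in the members, had -0.29 in IgA cells. The transcription factor gene Ikzf3 had -1.17 and Gpr183 -2.30 (-3.33 to -1.44), with -0.44 and 0.20 in IgA cells. Ebf1 had 1.46 (0.56 to 2.78) on 68 UMIs, 9 of them labelled WT, with 0.86 in IgA cells. A single member held 33.9% of its UMIs labelled Ring1AKO. Mef2b had 1.68 on 62 UMIs. MHC class II genes had 3 of 4 tested above 0, and their sum had a ratio of 0.03 in IgG and 0.45 in IgA cells.

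Markers of other cell types were counted in the members. At least 3 UMIs of 1 of 5 marker lists were found in 20 of 26 members labelled WT and 38 of 47 labelled Ring1AKO, against 315 of 522 and 288 of 441 IgA plasma cells. Most of this was the list of epithelial and stromal genes, with 18 and 30 members, and Epcam gave 99 of its 122 and 202 of its 224 UMIs, at 264 and 246 CPM in IgG and 186 and 182 CPM in IgA cells. Myeloid genes reached 3 UMIs in 6 and 12 members, T cell genes in 0 and 3, and NK and mast cell genes in 0 and 2. Lyz2, the 1 myeloid gene with enough UMIs to be compared, had 253 and 34.1 CPM, a log2 ratio of -2.86 (-3.56 to -2.27), while cell-free barcodes held it at 1826 and 609 CPM. In the WT-labelled library 3 members held 111 of the 140 UMIs of the myeloid list, and 1 member 36.8% of the Lyz2 UMIs. The part of such RNA in the ratios above was not tested beyond the alternatives given.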

How the data were processed

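CD45+ 7-AAD negative cells of the colonic LP were measured in 1 library per genotype. The authors deposited unnormalized UMI counts for every gene in each barcode, made by Cell Ranger. The version is given as 3.0.1 with mm10 in the methods of the paper, in the header of the matrices as Cell Ranger 4, and in the submitters' processing notes as Cell Ranger 6.0.2 with mm39. Of 32228 gene identifiers 32150 were in GENCODE vM21 (GRCm38), from which coordinates and sequences were taken.

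Members and gene lists were chosen with earlier results of these data known. Cells were selected as the report states. B cells had at least 3 UMIs of a set of B cell genes with Ms4a1 and Cd79a, of which the rest is not reported here, and T cells at least 3 of Cd3d, Cd3e and Cd3g, both with a plasma score under 10 and B cells without Csf1r and Cd3e, T cells without Csf1r and Cd79a. No doublet caller was run, and no cell-free RNA was subtracted. Gene levels were summed over cells, with 1 UMI added to each sum in log2 ratios. Shares have exact Clopper-Pearson intervals, levels exact Poisson intervals, ratios of shares Katz intervals and ratios of genes exact conditional ones. No test was made. Named genes were the 10 highest and 10 lowest in each comparison with at least 100 UMIs. They were counted in at least 25% of cells of the higher group. No cell held over 25% of a gene's UMIs in both compared groups together. Within the members of 1 library a cell could hold more, as with Gm45716 at 50% labelled WT. Also named were the immunoglobulin constant genes and Ring1. From each list the most abundant members and those past 2-fold with at least 50 UMIs were named too. Python 3.11.15 with numpy 2.4.6, scipy 1.17.1 and pandas 2.3.3 was used, and the ratios and intervals were tested on simulated data.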

Additional observations from a re-analysis of the deposited data

Results flagged for a closer look

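Gamma constant transcripts appeared in data outside the comparisons, in barcodes with 1 to 99 UMIs, which hold cell-free RNA. In CPM of all UMIs of these barcodes the WT-labelled library held Ighg1 at 1006, Ighg2b at 1218, Ighg2c at 514 and Ighg3 at 65.8, and the Ring1AKO-labelled library held 2801, 1552, 748 and 16.9. Ighg3 was the leading subclass of 0 members labelled WT and 1 labelled Ring1AKO, while 13 of 522 and 1 of 441 IgA plasma cells had at least 10 Ighg3 UMIs. The MHC class II list lay on opposite sides in the libraries, with a log2 ratio of IgG over IgA plasma cells of 0.25 in the WT-labelled library and -0.17 in the Ring1AKO-labelled library. This difference was not tested.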

How the results depend on the processing

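No paired analysis was possible because each group had 1 library. Of 89 recomputed values of the comparisons 68 kept their direction and size. For named genes this was 430 of 480, including limits of 20 and 200 UMIs per gene, which cannot change such a ratio. Beyond these, 48 named values moved and 2 changed side. In Ring1AKO over WT the 2 were H2ac24, at -0.059 without cells holding 3 or more UMIs of another lineage, and Shmt2, at -0.11 thinned to 2000 UMIs. Of the 20 genes named for IgG over IgA, 11 moved when thinned and 13 without other-lineage cells. Without other-lineage cells the IgG share of kept cells had a log2 ratio of -0.72, or -0.88 where the epithelial and stromal list was not used (added after seeing the data); most T and myeloid cells leave the denominator there by construction. Without other-lineage cells the IgG1 share of IgG cells had a log2 ratio of -1.17, with 20 of 26 and 38 of 47 members left out. The MHC class II ratio, 0.25 in WT, was 0.42 thinned, 0.35 as a mean over cells, 0.45 without other-lineage cells and 0.38 in CPM of all UMIs; in Ring1AKO, -0.17, it was -0.11 as a mean, -0.11 without other-lineage cells and 0.21 on that scale. The 64 genes past 2-fold between IgG and IgA were 271 with at least 20 UMIs, 28 with 200, 7 thinned and 31 without other-lineage cells. The 107 genes past 2-fold between libraries were 824, 47, 5 and 19, and 50 or 69 where the epithelial list was not used or members with neutrophil markers were left out (both added). The 27 members in shared variable pairs were 0 with 10 UMIs and 80%. Fewer genes, UMIs or cells enter each smaller count.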
